A study of Homo sapiens with 3 samples.

Results

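BCAT1 and 9 further genes of branched-chain amino acid breakdown were followed in SupB15 cells and their drug resistant derivative SupB15-MR. The genes were BCAT1, BCAT2, BCKDHA, BCKDHB, DBT, DLD, BCKDK, IVD, MCCC1 and MCCC2. All probe sets assigned to 1 of these genes alone were taken, which gave 26 of the 54675 probe sets on the array and 10 of 19775 genes. BCAT1 was chosen by the same contrast that is described here, SupB15-MR minus SupB15, where it had one of the largest differences, and the other 9 genes were taken as its pathway. The values below are therefore a description of these arrays, and no test was run on them.

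SupB15 is a BCR-ABL positive line of B-cell precursor acute lymphoblastic leukemia (ALL), and was measured on 1 array from drug sensitive cells in normal medium. SupB15-MR was measured on 2 arrays from multiple drug resistant cells, also kept in normal medium. The resistant cells descend from SupB15 cells that survived mitoxantrone in conditioned medium of the stromal line HS-5 and were then grown without drug. All 3 samples were cultured in RPMI1640 with FBS at the same passages. The labels call the SupB15-MR arrays biological replicates, and that of replicate 2 also names SupB15-MR5. The text of the study describes them as clones of SupB15-MR. With 1 array a clone, spread between clones and spread between cultures cannot be told apart.

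Leucine, isoleucine and valine are broken down along a shared route. A transaminase, cytosolic BCAT1 or mitochondrial BCAT2, first moves the amino group to 2-oxoglutarate, which yields glutamate and a branched-chain ketoacid. The mitochondrial branched-chain ketoacid dehydrogenase complex (BCKDHA, BCKDHB, DBT and DLD) then removes the carboxyl group irreversibly, under the control of the kinase BCKDK, and IVD, MCCC1 and MCCC2 carry the leucine product further. BCAT1 is known for high expression in several leukemias, where it has been linked to glutamate supply and to the level of 2-oxoglutarate.

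The values are RMA expression values on the log2 scale, so that a difference of 1 is 2-fold. Over all probe sets the SupB15-MR arrays correlated with each other at r = 0.995 and with SupB15 at r = 0.841. They held identical values for 23368 probe sets (42.7%), among them 6 of the 26 described here, so that the difference between them is no full measure of replicate spread. All 3 arrays held the same value for 7470 of the 54675 probe sets, so that such a tie is common here. SupB15 has 1 array and no spread of its own. Array medians were 5.08 in SupB15 and 5.27 and 5.28 in SupB15-MR, and centring the arrays shifts the median of all differences from 0 to -0.19. Control probe sets differed as well: the 18S probe sets were 6.57 to 7.84 higher in SupB15-MR, and the ACTB 3' minus 5' difference was 0.80 in SupB15 against 2.59 and 2.43. That of GAPDH was 0.10 in SupB15 against -0.09 and -0.11, and the 18 hybridization spike probe sets were 1.45 to 3.98 higher in SupB15-MR. The 28S probe sets went both ways, with differences from SupB15 between -0.90 and 4.64. The 27 polyA spike probe sets were 0.18 to 2.97 higher in SupB15-MR. In level, the 3 GAPDH control probe sets had differences from SupB15 between -1.98 and -1.12, and the 3 of ACTB between -1.77 and 0.02. Of 15 precursor B-cell markers on the array, 15 lay above the 20th percentile of all values (3.47) in SupB15, and 15 and 14 in SupB15-MR. Here and below, a probe set or gene is counted as lower or higher when each SupB15-MR array lay 2-fold or more from SupB15. By this rule 3 of the markers were higher (MME, RAG1 and RAG2) and 7 lower (EBF1, VPREB1, VPREB3, IGLL1, CD34, BLNK and CD24). Of the 17531 genes with a value above that percentile in at least 1 array, 14.5% were higher and 15.1% lower. The summed linear values of 9 T-cell markers were 216 in SupB15 and 167 to 170 in SupB15-MR, those of 9 myeloid markers 268 and 301 to 447, and those of 11 stromal markers 650 and 466 to 485. The sum over 3 erythroid markers was 101 in SupB15 and 67.0 to 87.2 in SupB15-MR, against 39271 and 26128 to 27728 over the B-cell markers. By the 2-fold rule 2 myeloid markers were higher (MPO and LYZ) and 1 lower (CSF1R). Among the stromal markers 1 was higher (COL5A1) and 2 lower (THY1 and DCN). Of the T-cell markers 1 was lower (CD3E), and no erythroid marker was counted. The part of these control and marker differences in the results below was not tested.

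By 1 probe set a gene, BCAT1, the cytosolic transaminase, had the lowest difference of 17531 genes. Each of these had a value above the 20th percentile in at least 1 array. The rank depends on the probe set chosen. By the median over its probe sets BCAT1 had -7.48, above COL6A3 (-8.06) and GSDME (-8.01), which have 1 probe set each. All 4 BCAT1 probe sets were far lower in both SupB15-MR arrays. Probe set 226517_at had 11.72 in SupB15 and 2.56 and 2.35 in SupB15-MR, a mean difference of -9.27, which was the lowest of all 54675 probe sets. Probe set 225285_at, which represents the gene below because it has the highest mean of the group means, had 11.69 in SupB15 against 3.28 and 3.14 in SupB15-MR. Its difference of -8.48 corresponds to a 357-fold lower value and ranked 3 from the lowest. The other two probe sets gave smaller differences in the same direction. Probe set 214452_at went from 9.83 to 3.25 and 3.45, a difference of -6.48. Probe set 214390_s_at had 9.02 in SupB15 and 4.37 and 4.29 in SupB15-MR, a difference of -4.69. The SupB15-MR arrays differed from each other by at most 0.22 on these probe sets, so that the arrays of the groups lay far apart on each of them. On 3 of the 4 probe sets both SupB15-MR values were at or below 3.47, the 20th percentile, and the size of the difference is limited by that background. In RNA from bulk cells, fewer expressing cells and less RNA per cell cannot be told apart.

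BCAT1 lies on chromosome 12 at 24810024-24949340 (GRCh38.p14). RefSeq gives 5 start-site windows for it, each from 250 bases before to 50 after a start, in 2 groups along the gene, and for 9 of the 10 genes in all, with no entry for BCAT2. The outer window with a MYC-type E-box and the inner window with the most CpG are shown, because BCAT1 differed most among the 10 genes. The capitals mark the E-box CACGTG, which reads the same on both strands. Which start the probe sets report on was not analysed here.
BCAT1 outer start, chr12:24949052-24949351, minus strand: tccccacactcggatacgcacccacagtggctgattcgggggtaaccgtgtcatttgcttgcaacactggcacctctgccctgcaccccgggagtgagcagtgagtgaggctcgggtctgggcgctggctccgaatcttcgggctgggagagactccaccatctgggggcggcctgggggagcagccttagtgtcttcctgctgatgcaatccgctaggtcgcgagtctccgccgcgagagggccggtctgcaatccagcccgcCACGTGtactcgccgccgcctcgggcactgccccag
BCAT1 inner start, chr12:24902851-24903150, minus strand: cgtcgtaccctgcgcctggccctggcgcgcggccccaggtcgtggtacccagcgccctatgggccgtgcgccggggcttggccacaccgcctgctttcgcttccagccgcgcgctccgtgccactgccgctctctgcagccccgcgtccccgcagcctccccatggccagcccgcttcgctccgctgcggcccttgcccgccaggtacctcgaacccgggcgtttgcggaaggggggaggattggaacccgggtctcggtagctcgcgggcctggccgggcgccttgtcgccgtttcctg
The outer window holds 1 E-box and 23 CpG, and the inner window no E-box and 38 CpG, against a median of 14 CpG over all 35116 windows in the RefSeq set. The other 3 BCAT1 windows hold 11, 13 and 35 CpG and no E-box, so that 1 of the 5 windows has the motif. An E-box was found in 7.26% of all windows, and in at least 1 window of 8.77% of all genes in the set. Among the other pathway genes it was found in 2 of 3 windows of MCCC1 and in the single window of MCCC2. Those 2 windows of MCCC1 overlap and hold the same E-box. The letters describe the window and show no binding. MYC itself, on its single probe set, had 10.95 in SupB15 and 10.83 and 10.89 in SupB15-MR.

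BCAT2, the mitochondrial transaminase (chromosome 19, 48795064-48811029), was also lower in SupB15-MR, by much less. Probe set 203576_at had 8.92 in SupB15 and 7.57 and 7.56 in SupB15-MR, a difference of -1.35 or 2.56-fold. Probe set 215654_at was level, at 6.27 in SupB15 and 6.24 and 6.27 in SupB15-MR. BCAT2 was thus lower on 1 of its 2 probe sets.

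**Figure D1:**
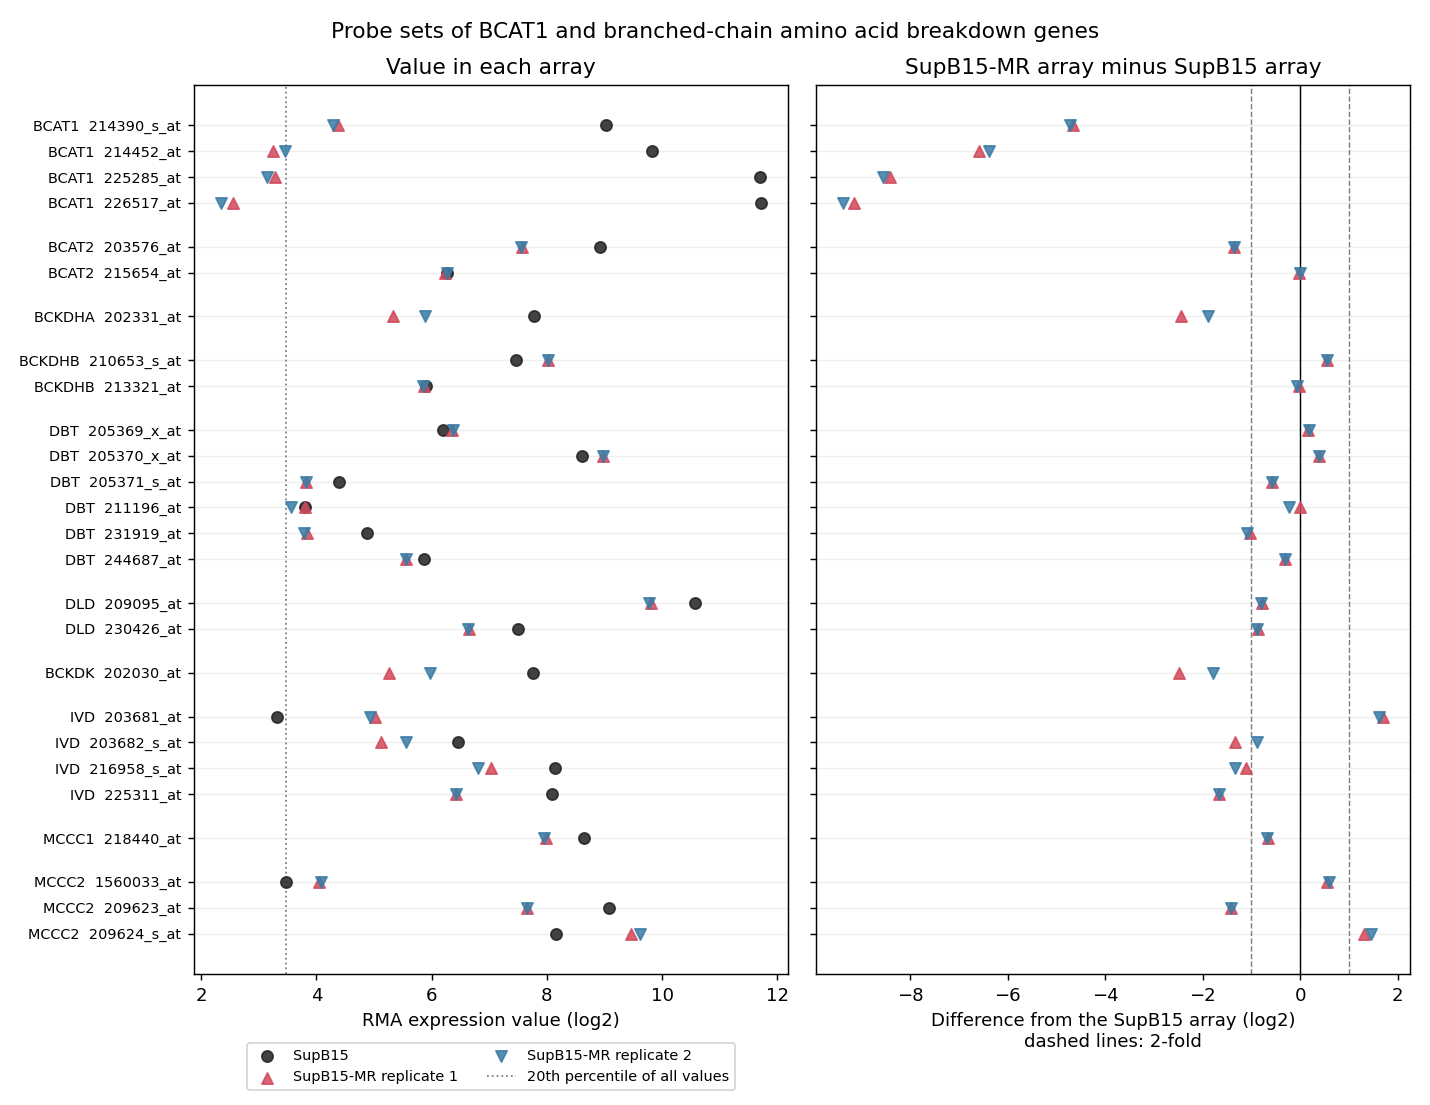
Left, RMA value (log2) of each of the 26 probe sets in the SupB15 array (circles) and both SupB15-MR arrays (triangles), with the 20th percentile of all values as a dotted line. Right, each SupB15-MR array minus the SupB15 array, with dashed lines at 2-fold. The 4 BCAT1 probe sets lie between -9.27 and -4.69 on average, and the next lowest is BCKDHA at -2.17.

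Within the branched-chain ketoacid dehydrogenase complex, the subunits did not move as one. BCKDHA, the alpha subunit of the decarboxylase (chromosome 19, 41397818-41425002), had 7.77 in SupB15 and 5.33 and 5.88 in SupB15-MR on its single probe set. The difference of -2.17 is 4.49-fold, and the 0.55 between the SupB15-MR arrays is well below it. BCKDHB, the beta subunit of the same decarboxylase (chromosome 6, 80106610-80466676), had 7.46 and then 8.02 in both SupB15-MR arrays on probe set 210653_s_at, a difference of 0.56. On its other probe set it had 5.91 in SupB15 and 5.88 and 5.85 in SupB15-MR. Both subunits form 1 enzyme, and here only the transcript of the alpha subunit was at least 2-fold lower.

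DBT, the lipoate-bearing transacylase core of the complex (chromosome 1, 100186919-100249834), has 6 probe sets. The most intense, 205370_x_at, had 8.60 in SupB15 and 8.98 in both SupB15-MR arrays, a difference of 0.38. Probe set 231919_at had 4.88 in SupB15 and 3.84 and 3.79 in SupB15-MR, a difference of -1.06, and the other 4 lay between -0.57 and 0.17. The sign of the latter turned with median centring (-0.02), the only one of the 26 that did. DLD, the dehydrogenase subunit that the complex shares with pyruvate dehydrogenase and 2-oxoglutarate dehydrogenase (chromosome 7, 107891107-107921198), was lower on both of its probe sets without reaching 2-fold. Probe set 209095_at had 10.57 in SupB15 and 9.80 and 9.78 in SupB15-MR, and 230426_at had 7.50 and then 6.64 and 6.62. The differences were -0.79 and -0.87.

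BCKDK, the kinase that switches the complex off (chromosome 16, 31108386-31117640), was lower by nearly as much as BCKDHA. Its single probe set had 7.75 in SupB15 and 5.26 and 5.97 in SupB15-MR, a difference of -2.14 or 4.40-fold. The SupB15-MR arrays differed by 0.71 on it, the widest gap among the 26 probe sets, and both lay clear of SupB15. PPM1K, the phosphatase that switches the complex on again, is no member and is given beside the kinase, a choice made after its values were seen. Its most intense probe set had 8.47 in SupB15 and 7.91 and 7.96 in SupB15-MR. Its other 4 went both ways: 235061_at had 8.92 and then 6.56 and 6.47, whereas 240050_s_at had 2.69 and then 7.97 and 7.88. No single direction can be given for PPM1K.

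On the leucine branch, IVD, the isovaleryl-CoA dehydrogenase (chromosome 15, 40405795-40435947), was lower on 3 of its 4 probe sets. Probe set 216958_s_at had 8.14 in SupB15 and 7.03 and 6.80 in SupB15-MR, a difference of -1.23. Probe set 225311_at had 8.09 in SupB15 and 6.42 in both SupB15-MR arrays, a difference of -1.67. These 2 are counted as lower. Probe set 203682_s_at had 6.46 and then 5.12 and 5.56, with only replicate 1 past 2-fold. The dimmest, 203681_at, ran the other way, from 3.31, below the 20th percentile, to 5.02 and 4.93.

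MCCC1 and MCCC2 encode the biotin-bearing and the partner subunit of methylcrotonyl-CoA carboxylase. MCCC1 (chromosome 3, 183015218-183116196) had 8.64 in SupB15 and 7.99 and 7.96 in SupB15-MR, a difference of -0.67. MCCC2 (chromosome 5, 71587340-71658706) had opposite differences on its 2 most intense probe sets. Probe set 209624_s_at had 8.15 in SupB15 and 9.47 and 9.62 in SupB15-MR, a difference of 1.39. Probe set 209623_at had 9.08 in SupB15 and 7.66 in both SupB15-MR arrays, a difference of -1.42. The dim 1560033_at had 3.48 and then 4.04 and 4.08. The direction of MCCC2 thus depends on the probe set, and it is the single gene of the 10 counted as higher below.

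Counted together, 11 of the 26 probe sets were lower by this rule, where 15% of all 46034 probe sets with a value above the 20th percentile were. Counted as higher were 2 of 26, against 18.3% of all. All 26 had a value above the 20th percentile in at least 1 array. Their median difference was -0.83, against 0 over all probe sets, and 20 of the 26 means lay below 0, where 18843 of all 46034 did. With median centring 13 were lower and 2 higher, against 18.3% and 15.2% of all. With quantile normalization 12 were lower and 2 higher, against 16.8% and 16.3%. Without BCAT1, 7 of 22 probe sets were counted as lower and 2 as higher, with a median of -0.62. With 1 probe set a gene, BCAT1, BCAT2, BCKDHA, BCKDK and IVD were counted as lower (5 of 10, against 15.1% of 17531 genes) and MCCC2 as higher (1 of 10, against 14.5%). The median over the 10 genes was -1.01. BCAT1 was chosen from these values, and the other members, the lists below and the rules with earlier results of these data known. The counts, with or without BCAT1, are therefore no evidence about the pathway. Shares over all genes are given only for scale.

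**Figure D2:**
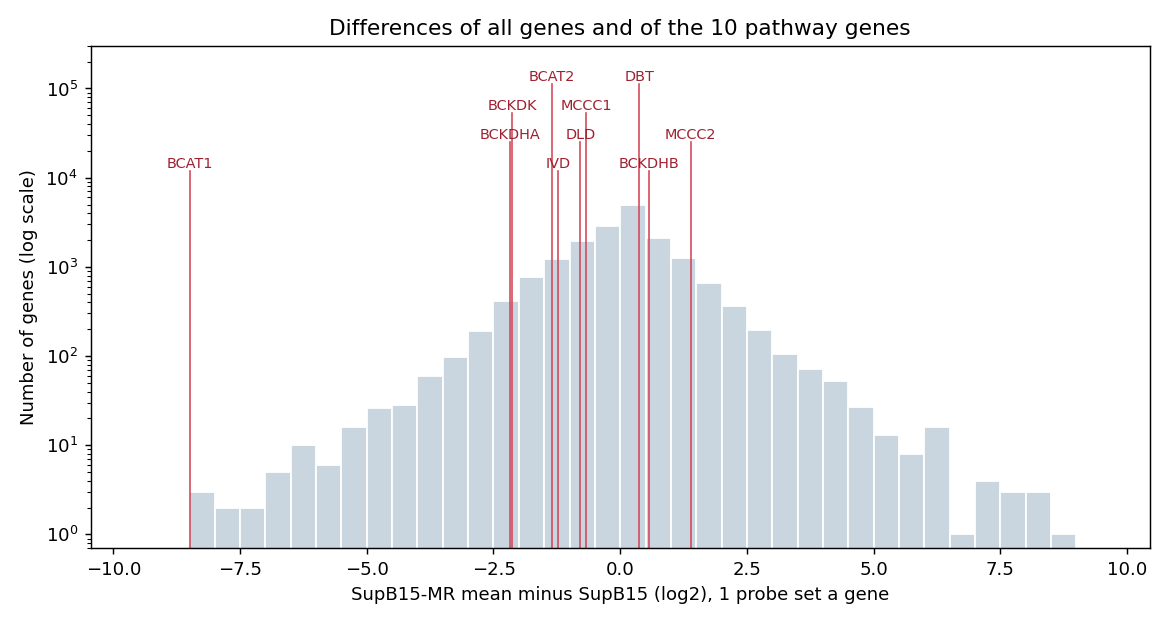
Number of genes (log scale) by SupB15-MR mean minus SupB15 (log2, bins of 0.5) for the 17531 genes with a value above the 20th percentile, 1 probe set a gene; differences of exactly 0 fall in the bin that starts at 0. Lines mark the 10 pathway genes, with BCAT1 at -8.48 at the lower edge of the distribution, BCKDHA and BCKDK near -2.1 and MCCC2 at 1.39.

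The SupB15-MR arrays can also be set against each other. Over the 26 probe sets the median absolute difference between them was 0.04, against 0.05 over the 46034. It was at least 0.4 for 3 probe sets, those of BCKDK (0.71) and BCKDHA (0.55) and 203682_s_at of IVD (0.45), each higher in replicate 2. Of all 46034 probe sets 8.47% differed by as much. With 1 array each, no test of this difference was possible.

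Upstream of the transaminases, transporters bring the amino acids into the cell. Here and for the lists below a gene is counted by 1 probe set, and the shares over all 17531 genes to read the counts against are the 15.1% lower and 14.5% higher given above. Of 7 transporter genes, 3 were counted as lower and 0 as higher, with a median difference of -0.46. SLC7A5, the light chain of the main leucine importer of dividing cells, had 12.28 in SupB15 and 9.22 and 8.64 in SupB15-MR, a difference of -3.35 or 10.2-fold. SLC3A2, the heavy chain that partners it at the cell surface, had 9.79 in SupB15 and 6.66 and 6.56 in SupB15-MR, a difference of -3.18 or 9.05-fold. Each has 1 probe set, and each of their SupB15-MR values lay far below that of SupB15. SLC7A8, an alternative light chain, had 6.83 and then 4.76 in both SupB15-MR arrays (-2.07), and its other 4 probe sets lay between -1.04 and 0.10. SLC25A44, the mitochondrial carrier of branched-chain amino acids, is named here after its values were seen. It had 8.24 in SupB15 and 8.61 in both SupB15-MR arrays, and its other probe set had the same value on all 3.

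Downstream of the shared steps lie the isoleucine, valine and propionyl-CoA enzymes. Of 12 further breakdown enzymes, PPM1K included, 1 was higher (against 14.5% of all genes) and 1 lower (against 15.1%). HADHA, a subunit of the trifunctional protein of fatty acid oxidation, was 1.68 higher, with 2 of its 3 probe sets past 2-fold. ACADSB, the dehydrogenase of the isoleucine branch, had a difference of -1.61, and its other probe set had 0.79. ALDH6A1, the dehydrogenase of the valine branch, is named after its values were seen: it was not counted, and its 5 probe sets ranged from -0.66 to 2.94. Of 7 genes of the propionyl-CoA steps 2 were lower. MMAB, which makes the cobalamin cofactor, had a difference of -1.53, and MMUT, the methylmalonyl-CoA mutase that uses it, one of -1.39, with 0.48 on its other probe set.

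The transaminases exchange amino groups with glutamate, and enzymes of that pool were compared as well. Of 12 other aminotransferases, 1 was higher (OAT, ornithine aminotransferase, 1.43) and 1 lower (AADAT, which acts on aminoadipate and kynurenine). AADAT had 4.06 in SupB15 and 2.92 in both SupB15-MR arrays, below the 20th percentile, and it no longer reached 2-fold with values floored there. KYAT1, ABAT and PSAT1, named after their values were seen, were not counted but had another probe set past 2-fold in both arrays. Over their probe sets KYAT1 ranged from -0.72 to 1.89, ABAT from -0.70 to 1.93 and PSAT1 from -3.67 to -1.13. Only 3 of 6 glutamate and glutamine genes have a probe set of their own, and 2 were higher. GLUL, glutamine synthetase, had 9.73 in SupB15 and 11.95 and 11.68 in SupB15-MR, a difference of 2.08 or 4.23-fold, and 3 of its 4 probe sets are counted as higher. GLUD1, glutamate dehydrogenase, had 8.17 and then 9.61 and 9.42 on probe set 200946_x_at, a difference of 1.34. On 200947_s_at it had -0.83, and its near-identical copy GLUD2 may share its probes. ASNS, asparagine synthetase, had 5.92 in SupB15 and 7.68 and 6.71 in SupB15-MR, so that only replicate 1 was past 2-fold.

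Of 9 genes of the other complexes that use DLD, 0 were counted as higher and 2 as lower. GLDC, the glycine decarboxylase, had a difference of -1.66, and AMT, the aminomethyltransferase, one of -1.25. The 3 genes of this list that were not counted but had another probe set past 2-fold in both arrays are named after their values were seen. GCSH, the carrier protein of glycine cleavage, had -0.13 and, on 213133_s_at, 1.72. DLAT, the transacetylase of pyruvate dehydrogenase, had -0.61 and, on its other 2 probe sets, -1.30 and -2.93. PDHA1, a decarboxylase subunit of that complex, ranged from -0.06 to 1.41. Of 4 cofactor genes with a probe set of their own, LIAS, which makes the lipoate that DBT carries, was 1.47 higher. Of 8 leucine sensing genes, RRAGB, a RAG GTPase that recruits mTORC1, was 2.90 higher and SESN2, a leucine-binding sestrin, had -1.44, while the other 6 were not counted on the probe set that stands for the gene. Of these 6, LARS1, SESN3 and RRAGD had other probe sets past 2-fold in both arrays, with ranges over their probe sets of -2.56 to 2.45, 0 to 4.09 and 0.27 to 1.31. Of the 5 genes listed as regulators of BCAT1 or BCAT2 in other cells, MSI2, an RNA-binding protein, had a difference of 1.16 on its most intense probe set, and its 10 probe sets ranged from -1.13 to 5.28. KLF15, EZH2 and DOT1L, with 0.67, 0.69 and -0.47, and MYC, with -0.09, were not counted. The other probe set of KLF15 had -0.71, and DOT1L had 1.18 on 214865_at, past 2-fold in both arrays, and 0 on 231297_at. Of all 67 genes of these lists 7 were higher and 10 lower, against 14.5% and 15.1% of all genes, with a median of -0.09. With median centring 6 were higher and 15 lower, where 15.2% and 18.3% of all 46034 probe sets were. The share over all genes with centring was not counted.

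**Figure D3:**
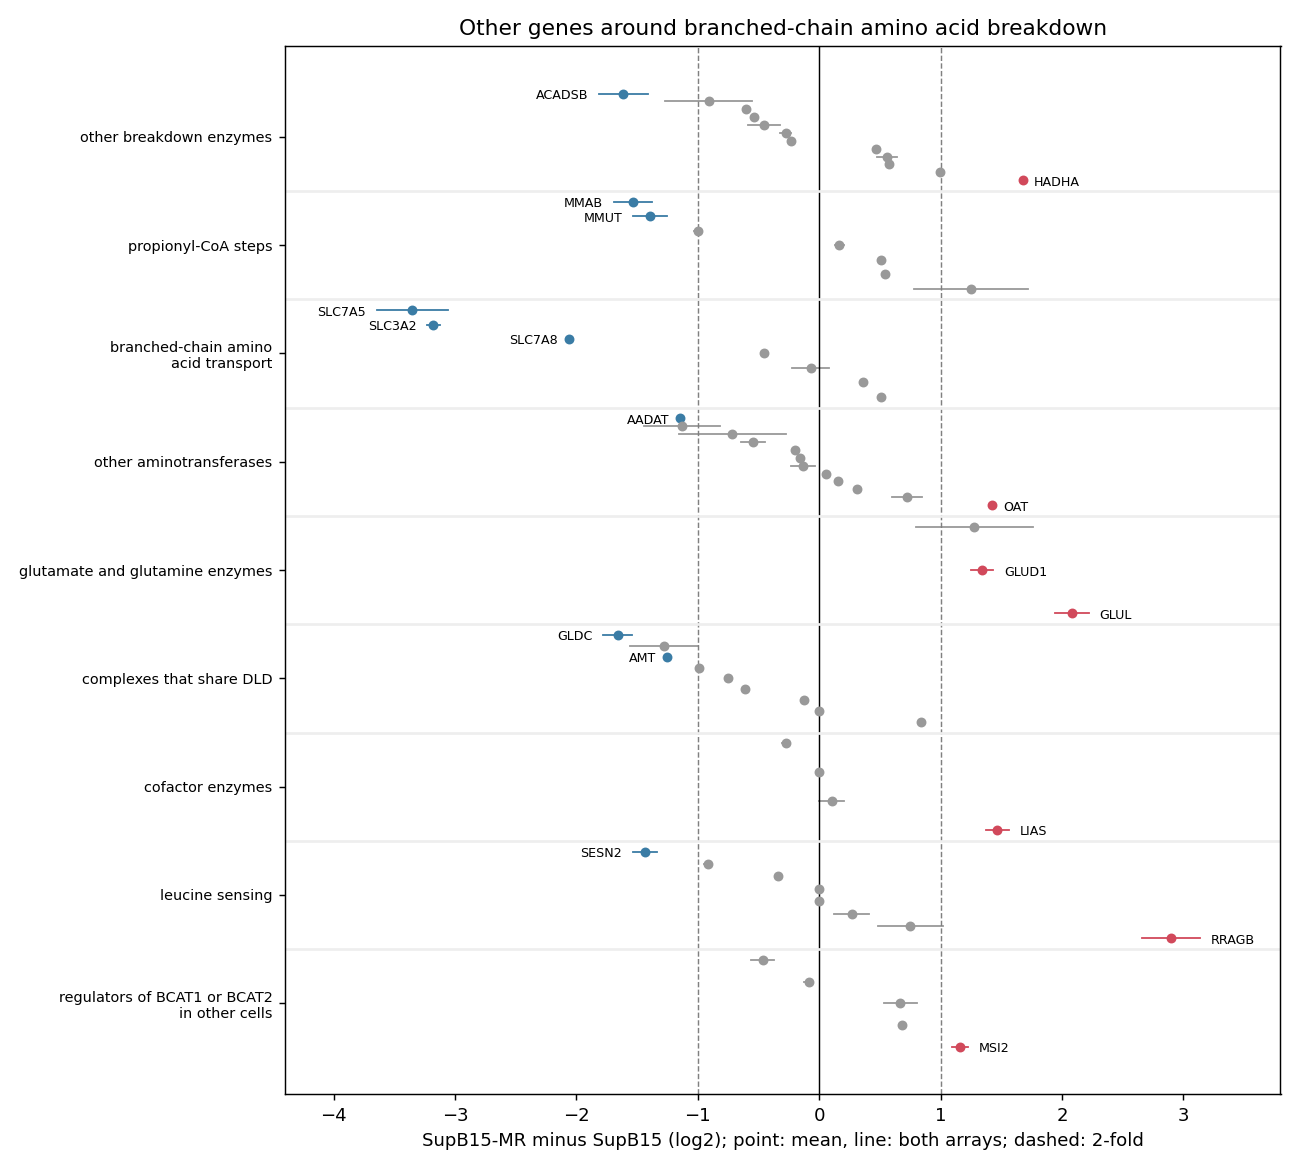
SupB15-MR minus SupB15 (log2) for the 67 other genes around branched-chain amino acid breakdown, 1 probe set a gene, by list, with points for the mean and lines that join both SupB15-MR arrays. Named genes are counted as lower or higher, with both arrays past 2-fold; SLC7A5 (-3.35) and SLC3A2 (-3.18) lie lowest and RRAGB (2.90) highest.

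The genes whose 3 values lay nearest to those of BCAT1 were found by Euclidean distance over the 3 arrays, with 1 probe set a gene. The 5 nearest were TPD52 (distance 0.64), COL6A3 (0.66), GSDME (0.71), EFEMP1 (1.17) and SNX7 (1.45). TPD52, a tumor protein of vesicle transport, had 11.17 in SupB15 and 3.56 and 3.40 in SupB15-MR, and all 5 of its probe sets are counted as lower. COL6A3, a collagen VI chain, had 11.17 and then 2.91 and 3.31. None of the 5 is an enzyme of the pathway. With 3 arrays that fall into 2 groups, likeness of this kind says only that these genes were high in SupB15 and near background in SupB15-MR.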

How the data were processed

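Total RNA, labelled with a NuGEN Ovation kit, was run on Affymetrix HG133plus2 arrays. The deposited values are log2 expression values, normalised and summarised by the authors with RMA into 1 value for each of 54675 probe sets. Median polish and a common background limit what low values can show. Raw scans were not used here, and the precision is limited by the number of arrays (1 and 2).

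Probe sets were named from the platform annotation, with symbols updated through Entrez IDs: 41097 have 1 gene, 1801 several and 11777 none. All member probe sets are given. For counts of genes, the probe set with the highest mean of the SupB15 value and the SupB15-MR mean was used. Differences are each SupB15-MR array minus SupB15. Counts need at least 2-fold in both arrays, among 46034 probe sets (8641 removed) with a value above the 20th percentile (3.47) in at least 1 array, both limits after the study's methods.

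The members, lists and rules were chosen with earlier results of these data known. All members were named, of each other list the 2 largest differences in each direction past 2-fold, all genes of lists of up to 5, and the 5 genes nearest to BCAT1. The methods' ANOVA was not run, because the contrast chose the members and SupB15 has 1 array. Of 75 listed genes 67 had a probe set of their own. Counting was tested on simulated data. Python 3.11.15, numpy 2.4.6 and pandas 2.3.3 were used.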

Additional observations from a re-analysis of the deposited data

How the results depend on the processing

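The difference of BCAT1 was -8.48 as deposited, -8.67 with median centring, -8.25 with values floored at the 20th percentile, -9.27 on the probe set highest in SupB15 and -7.48 with the median over its probe sets, taken over levels or over differences. The median over the 10 genes was -1.01, and -1.20 with centring, -1.39 without _x_at and _s_at probe sets, -1.29 with the probe set highest in SupB15 and -0.76 with the median over probe sets, by levels or, chosen after seeing the data, by differences; the cause of these shifts was not tested. MCCC2 reversed without _x_at and _s_at probe sets and on the probe set highest in SupB15 (both -1.42), since its probe sets disagree. Its median level over probe sets gave -0.49, which sets the level of one probe set in SupB15 against that of another in SupB15-MR, and the median of its probe sets' own differences was 0.58. Genes under 2-fold also turned sign: DBT (0.38) to -0.31 without _x_at and _s_at probe sets, -0.68 by median level and -0.21 by median difference, and BCKDHB (0.56) to -0.05 without _x_at and _s_at probe sets. At 4-fold, 4 of the 26 probe sets were lower and 0 higher. At 2-fold, where the main count of higher probe sets was 2, it was 1 without _x_at and _s_at probe sets. It was also 1 when 1 array had to exceed the median of all values. Of the other pathway genes, 18 were lower and 13 higher at 1.5-fold, and 3 lower and 1 higher at 4-fold. Shares over all genes and probe sets were counted at 2-fold only. The counts at 1.5-fold and 4-fold thus cannot be set against the array at large. At 2-fold, 11 of the other pathway genes were higher with the probe set of the highest mean over all 3 arrays, a choice that weights SupB15-MR by its 2 arrays. Leaving out either SupB15-MR replicate moved none of these counts by over 1.5 times. No paired analysis was possible because SupB15 has 1 array.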

Other observations

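Probe sets of 1 gene differed widely in several genes around this pathway. LARS1, the leucyl-tRNA synthetase that also senses leucine, was lower on 3 of its 4 probe sets, with differences of -2.56, -1.46 and -0.92. Its probe set 223888_s_at had 7.69 in SupB15 and 10.15 and 10.12 in SupB15-MR. SESN3, a sestrin, had the same value of 6.82 in all 3 arrays on its most intense probe set, while 235684_s_at had 4.61 in SupB15 and 8.79 and 8.56 in SupB15-MR. PSAT1, the serine synthesis aminotransferase, had differences of -1.13 on 220892_s_at and -3.67 on 223062_s_at. These genes were named after their values were seen.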
